A study of Mus musculus with 16 samples.

Results

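Drd1, Drd2, Adora2a, Penk, Ppp1r1b, Rgs9 and Pde10a are genes of the medium spiny neuron, the projection neuron of the striatum, and they were measured here in RNA from the hippocampus. The 7 genes were taken by their symbols from 54532 listed genes. They were chosen by their measured levels: earlier results of these data showed them to vary between the mice and to be higher in hTau.P301S mice given nicotinamide riboside (NR) than in untreated hTau.P301S mice. Their values in that comparison are therefore a description without a test, and no threshold was used to choose them. The 16 mice formed 4 groups of 4, wild type (WT) and hTau.P301S mice each with and without NR, a precursor of NAD+ given at 6 mM in the drinking water. Per the labels, the mice were 12 months old at the start and 15 months old after 3 months of NR or of plain water. The paper gives other ages and, in a passage of its results, another length of treatment. The hTau.P301S mouse expresses human Tau with the P301S mutation from the Thy1 promoter, which drives expression in neurons, and the labels give no strain, sex or litter for the WT mice. Each library came from the hippocampus of 1 mouse, and the labels name no dissection batch.

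Medium spiny neurons are inhibitory neurons that receive glutamate from cortex and thalamus and dopamine from the midbrain. They fall into a direct pathway type with the dopamine D1 receptor and the peptides substance P and dynorphin, and an indirect pathway type with the dopamine D2 receptor, the adenosine receptor of Adora2a and enkephalin. Both types convert dopamine and adenosine into changes of cAMP, which act through protein kinase A on DARPP-32 and are ended by phosphodiesterases. The hippocampus holds no medium spiny neurons, though some of its own cells express members of the set, such as Penk and Ppp1r1b.

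Total counts per mouse ranged from 16490261 to 21915362. In hTau.P301S replicate 1, mitochondrial genes took 14.4% of the counts and 19467 genes had a count, against 4.48% to 7.07% and at least 22199 genes in the other mice. Levels are given as CPM, counts scaled to each mouse's TMM-normalized library total, and no value was corrected for gene length unless stated. All 7 genes had at least 22 counts in every mouse, so counting error was small beside the differences between the highest mice and the rest. Markers of the hippocampal subfields were present in all libraries, with the 10 genes of the list summing to between 453 and 1307 CPM. In RNA from whole tissue, fewer cells of a type and less RNA per cell cannot be told apart.

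Promoter sequences were looked up because all 7 genes were highest in WT replicate 2 and second highest in hTau.P301S + NR replicate 4. Any part of the promoters in these levels was not tested. Of the 7, 4 had an entry in the RefSeq promoter table (GRCm38.p6), and the 250 bases before the annotated start most upstream in that table are shown, 5′ to 3′ on the strand of the gene. They lie at chr13:54055659-54055908 on the minus strand for Drd1, chr9:49340153-49340402 on the plus strand for Drd2, chr11:109298182-109298431 on the minus strand for Rgs9 and chr17:8801495-8801744 on the plus strand for Pde10a. Capitals mark matches to the GC box (GGGCGG), the CCAAT box (CCAAT), the cAMP response element (TGACGTCA) or the TATA box (TATAAA), searched on both strands.
Drd1: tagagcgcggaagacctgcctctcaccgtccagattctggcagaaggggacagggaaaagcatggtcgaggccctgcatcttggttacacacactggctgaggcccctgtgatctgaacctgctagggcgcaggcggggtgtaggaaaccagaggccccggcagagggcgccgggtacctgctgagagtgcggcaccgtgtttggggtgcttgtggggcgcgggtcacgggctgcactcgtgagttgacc
Drd2: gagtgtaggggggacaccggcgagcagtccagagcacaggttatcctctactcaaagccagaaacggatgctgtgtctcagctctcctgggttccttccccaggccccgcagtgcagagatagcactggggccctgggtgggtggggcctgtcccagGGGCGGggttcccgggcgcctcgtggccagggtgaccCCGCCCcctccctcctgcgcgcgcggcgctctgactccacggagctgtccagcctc
Rgs9: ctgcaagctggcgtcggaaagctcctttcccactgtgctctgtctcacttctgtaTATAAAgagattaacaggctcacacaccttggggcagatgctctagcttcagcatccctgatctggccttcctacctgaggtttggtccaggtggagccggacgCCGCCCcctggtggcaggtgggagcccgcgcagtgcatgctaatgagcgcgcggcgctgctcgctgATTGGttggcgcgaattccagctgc
Pde10a: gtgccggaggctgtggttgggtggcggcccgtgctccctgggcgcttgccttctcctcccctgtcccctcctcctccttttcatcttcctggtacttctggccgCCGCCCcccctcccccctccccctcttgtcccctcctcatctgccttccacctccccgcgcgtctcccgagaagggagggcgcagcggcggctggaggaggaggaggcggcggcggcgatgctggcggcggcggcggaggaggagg

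No match was found in this window of Drd1, while Drd2 held 2 GC boxes, Pde10a held 1 GC box and Rgs9 held a GC box, a CCAAT box and a TATA box. Of 32851 promoters of the same length, 32.7% held a GC box, 33.8% a CCAAT box, 12.4% a TATA box and 1.55% the cAMP response element. No motif was shared by all 4 sequences shown. Drd1 and Pde10a each had another entry further downstream, which is not shown. That of Drd1 held a GC box and that of Pde10a a CCAAT box. Over all entries, each of the 4 genes had a GC box, so the lack of a shared motif depends on the start chosen. G and C made up 64.0% of the bases in Drd1, 68.8% in Drd2, 59.6% in Rgs9 and 72.8% in Pde10a.

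Among the receptors, Adora2a encodes an adenosine receptor that raises cAMP in indirect pathway neurons. It is ENSMUSG00000020178, at chr10:75316877-75334784 on the plus strand of GRCm38. In WT mice 1 to 4 it was at 2.69, 150.0, 2.53 and 2.49 CPM, in WT + NR mice at 2.31, 2.62, 13.8 and 2.43 CPM, in hTau.P301S mice at 3.16, 2.12, 1.63 and 1.55 CPM, and in hTau.P301S + NR mice at 2.64, 5.48, 2.13 and 48.8 CPM. WT replicate 2 was 58.3-fold, hTau.P301S + NR replicate 4 18.9-fold and WT + NR replicate 3 5.36-fold above the median of the 16 mice, 2.58 CPM. The other 13 mice lay between 1.55 and 5.48 CPM, and every group overlapped each of the others. Without its highest mouse, the mean was 2.57 ± 0.104 CPM (SD, n = 3) in WT mice and 2.45 ± 0.158 CPM in WT + NR mice. It was 1.77 ± 0.306 CPM in hTau.P301S mice and 3.42 ± 1.80 CPM in those given NR.

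Drd1, ENSMUSG00000021478, encodes the dopamine D1 receptor, which raises cAMP in direct pathway neurons, and lies at chr13:54051183-54055705 on the minus strand. In WT mice it was at 5.64, 90.0, 5.64 and 5.46 CPM, in WT + NR mice at 9.71, 3.33, 20.3 and 4.80 CPM, in hTau.P301S mice at 3.85, 4.03, 3.6 and 5.54 CPM, and in hTau.P301S + NR mice at 8.38, 11.8, 4.71 and 28.7 CPM. The same 3 mice were highest, WT replicate 2 at 16.1-fold the median of 5.59 CPM. In the hTau.P301S + NR group, replicates 1, 2 and 4 were above all 4 hTau.P301S mice and replicate 3 was within their range.

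Drd2, ENSMUSG00000032259, encodes the dopamine D2 receptor, which lowers cAMP in indirect pathway neurons and also acts as an autoreceptor on dopamine neurons. It lies at chr9:49340627-49408177 on the plus strand. In WT mice it was at 6.69, 83.8, 3.32 and 1.19 CPM, in WT + NR mice at 5.85, 1.42, 24.9 and 3.67 CPM, in hTau.P301S mice at 4.62, 4.66, 6.59 and 2.60 CPM, and in hTau.P301S + NR mice at 11.3, 14.3, 6.05 and 30.9 CPM. It was the member with the widest relative range among the 13 mice outside the 3 highest, from 1.19 to 14.3 CPM. As for Drd1, replicates 1, 2 and 4 of hTau.P301S + NR exceeded all hTau.P301S mice, and replicate 3 was below the highest of them.

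Penk, ENSMUSG00000045573, encodes proenkephalin, the precursor of the enkephalin peptides, and lies at chr4:4133531-4138819 on the minus strand. The annotated transcript A830012C17Rik overlaps it on the opposite strand, and since the sources do not state whether counting used strand, its reads cannot be told apart from those of Penk. Penk was at 35.6, 616, 34.8 and 25.7 CPM in WT mice, at 26.1, 18.9, 107 and 21.2 CPM in WT + NR mice, at 70.5, 15.7, 27.7 and 19.6 CPM in untreated hTau.P301S, and at 35.5, 74.8, 30.1 and 198 CPM in hTau.P301S + NR mice. Penk was the only member for which hTau.P301S replicate 1, the library with the high mitochondrial share, was more than 2 times the median of the 16 mice, at 2.17-fold.

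Ppp1r1b, ENSMUSG00000061718, encodes DARPP-32, which inhibits protein phosphatase 1 once protein kinase A has phosphorylated it. It lies at chr11:98348404-98357796 on the plus strand and is overlapped on the opposite strand by 1700003D09Rik. It was at 108, 614, 36.0 and 49.0 CPM in WT mice, at 44.6, 39.3, 143 and 123 CPM in WT + NR mice, at 99.4, 97.4, 47.8 and 48.0 CPM in untreated hTau.P301S, and at 43.7, 83.9, 36.5 and 193 CPM in hTau.P301S + NR mice. Below the 3 highest mice it kept a range from 36.0 to 123 CPM, and 3 of the 4 hTau.P301S + NR mice lay within or under the range of the hTau.P301S mice.

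Rgs9, ENSMUSG00000020599, encodes a GTPase-activating protein that shortens signalling by inhibitory G proteins, with a splice form enriched in striatum. It lies at chr11:109225355-109298129 on the minus strand. It was at 12.8, 136, 9.07 and 14.1 CPM in WT mice, at 10.5, 12.7, 27.3 and 12.0 CPM in WT + NR mice, at 9.49, 10.8, 8.83 and 9.14 CPM in untreated hTau.P301S, and at 14.8, 11.7, 10.1 and 45.2 CPM in hTau.P301S + NR mice. Outside the same 3 mice it lay between 8.83 and 14.8 CPM, and all 4 groups overlapped.

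Pde10a, ENSMUSG00000023868, encodes a phosphodiesterase that breaks down cAMP and cGMP and is abundant in both types of medium spiny neuron. It lies at chr17:8525372-8986648 on the plus strand, with Gm15425, Gm17087 and Gm15426 annotated on the opposite strand within it. It was at 71.0, 329, 72.8 and 78.1 CPM in WT mice, at 68.5, 74.0, 76.2 and 65.0 CPM in WT + NR mice, at 26.0, 73.5, 66.6 and 79.3 CPM in untreated hTau.P301S, and at 80.1, 69.2, 97.1 and 183 CPM in hTau.P301S + NR mice. It was the member in which WT + NR replicate 3 did not stand out, with 76.2 CPM against a median of 73.8 CPM. Its lowest value, 26.0 CPM, was in hTau.P301S replicate 1.

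**Figure D1:**
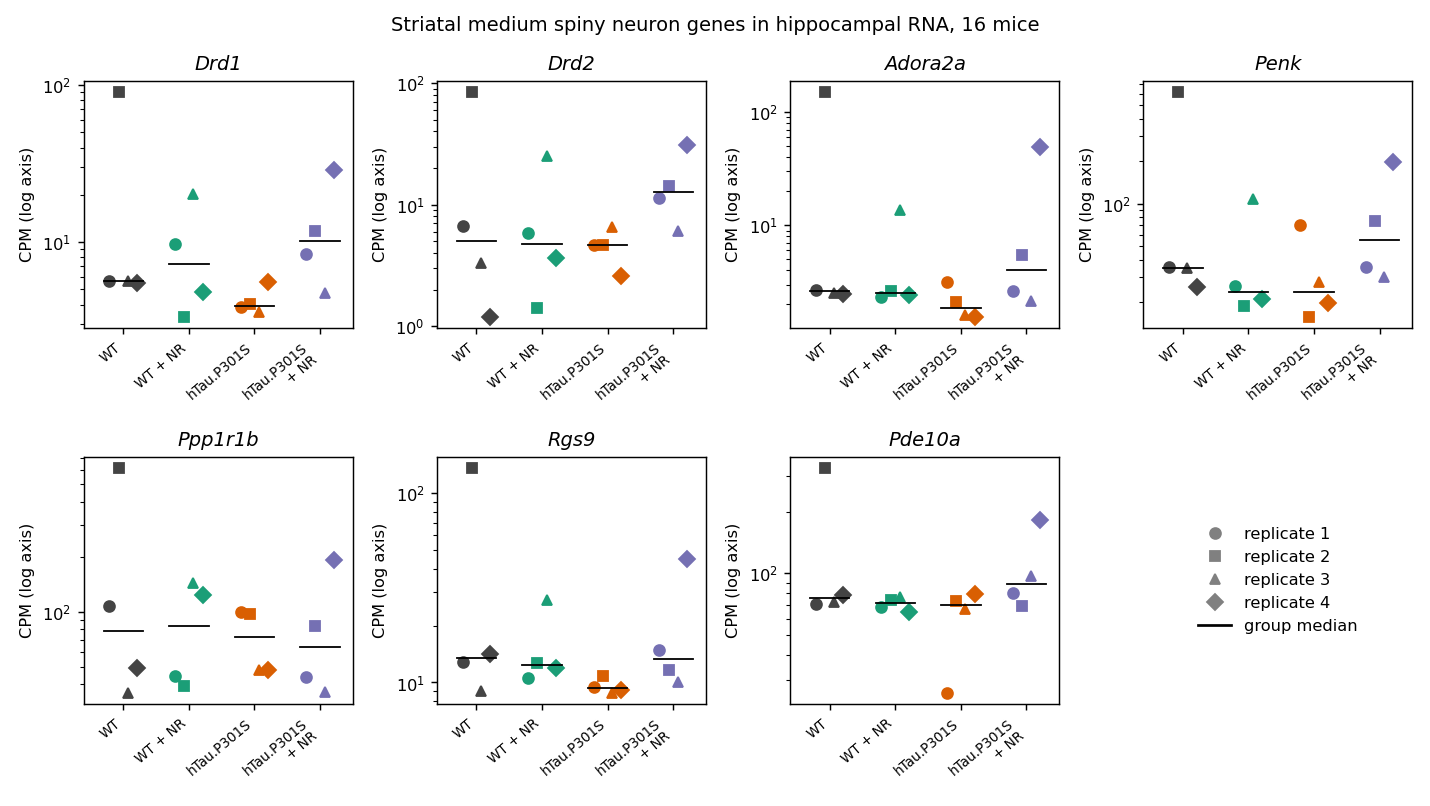
Level of each of the 7 genes in every mouse, in CPM on a log axis, by group, with symbols for the replicate number and a line at the group median. WT replicate 2 was the highest of the 16 mice and hTau.P301S + NR replicate 4 the second for all 7 genes, and WT + NR replicate 3 was the third for 6 of them.

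Per kilobase of the gene length given in the deposited table, the median level over the 16 mice was 22.7 CPM per kilobase for Ppp1r1b and 19.9 for Penk. It was 5.74 for Pde10a, 2.34 for Drd2, 1.86 for Rgs9, 1.54 for Drd1 and 0.842 for Adora2a. On this scale DARPP-32 and proenkephalin, which hippocampal cells also express, had the highest medians and the 3 receptors were among the 4 lowest. How that length was defined is not given in the sources used here.

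The order of the group medians differed from gene to gene. For Drd1, Drd2, Adora2a and Penk, the hTau.P301S + NR group had the highest median, at 10.1, 12.8, 4.06 and 55.2 CPM, and the hTau.P301S group the lowest, at 3.94, 4.64, 1.88 and 23.6 CPM. For Pde10a, the medians were 88.6 CPM in hTau.P301S + NR, 75.4 in WT, 71.2 in WT + NR and 70.0 in untreated hTau.P301S. For Ppp1r1b, the order was WT + NR with 83.7, WT with 78.6, hTau.P301S with 72.7 and hTau.P301S + NR with 63.8 CPM. For Rgs9, WT had 13.4, hTau.P301S + NR 13.3, WT + NR 12.3 and hTau.P301S 9.32 CPM. For all 7 genes, neighbouring groups in these orders overlapped in the values of their mice.

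The means followed the 3 high mice instead. In WT, the mean of Adora2a was 39.5 ± 73.9 CPM (SD, n = 4), that of Drd1 26.7 ± 42.2 CPM and that of Penk 178 ± 292 CPM, so the SD exceeded the mean. In hTau.P301S, which held none of the 3 mice, the means were 2.12 ± 0.741 CPM for Adora2a, 4.25 ± 0.877 CPM for Drd1 and 33.4 ± 25.3 CPM for Penk.

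Of 6 ratios between members that were computed, 3 were alike in the 2 highest mice and outside the range of the rest. All 3 contain Adora2a, which was at 58.3-fold and 18.9-fold its median in these mice, more than any other member. They are therefore not 3 separate signs. Penk was at 4.10 times the CPM of Adora2a in WT replicate 2 and at 4.06 times in hTau.P301S + NR replicate 4, against 7.19 to 22.3 times in the other 14 mice. Ppp1r1b was at 4.08 and 3.96 times Adora2a in these mice and at 10.3 to 50.6 times elsewhere. Adora2a was at 1.11 and 1.08 times Rgs9 in the same mice and at 0.170 to 0.505 times elsewhere. The other 3 ratios did not set both mice apart from the rest. Adora2a was at 1.79 and 1.58 times Drd2 in them, against 0.233 to 2.09 times elsewhere, Drd1 was at 1.07 and 0.926 times Drd2, against 0.545 to 4.59 times, and Pde10a was at 2.42 and 4.04 times Rgs9, against 2.74 to 9.58 times. These ratios are between counts of genes of different length, so they compare mice and not the abundance of the genes.

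**Figure D2:**
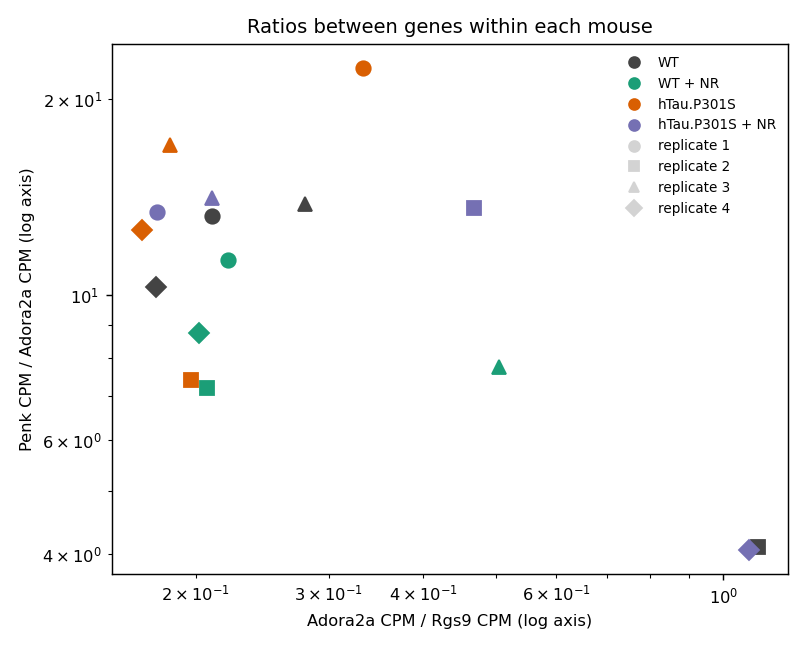
Ratio of Penk to Adora2a CPM (y axis, log scale) against the ratio of Adora2a to Rgs9 CPM (x axis, log scale) in each of the 16 mice, with colour for the group and symbol for the replicate. WT replicate 2 (1.11, 4.10) and hTau.P301S + NR replicate 4 (1.08, 4.06) lie together at the lower right, and the other 14 mice lie at an Adora2a to Rgs9 ratio of 0.505 or less. Adora2a enters both axes, so a rise of Adora2a alone also moves a mouse toward the lower right.

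The amount above the median of the 16 mice was compared between mice in the same way. In hTau.P301S + NR replicate 4 this excess was 23.2% of that in WT replicate 2 for Ppp1r1b, 26.9% for Rgs9, 27.3% for Drd1, 28.4% for Penk, 31.3% for Adora2a, 32.1% for Drd2 and 42.8% for Pde10a. In WT + NR replicate 3 the shares were less even, with 24.4% for Drd2, from 12.5% to 17.4% for Rgs9, Penk, Ppp1r1b and Drd1, 7.61% for Adora2a and 0.944% for Pde10a. The dopamine receptors had the largest share in that mouse, and Pde10a was close to the median.

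A score for each mouse, the mean over the 7 genes of their standardized log2 CPM, was 2.78 in WT replicate 2, 1.54 in hTau.P301S + NR replicate 4, 0.81 in WT + NR replicate 3 and 0.19 in hTau.P301S + NR replicate 2. In the other 12 mice it lay between -0.72 and -0.13. Over the 21 pairs of members, Pearson's r of log2 CPM over the 16 mice ranged from 0.56 to 0.97 with a median of 0.84. Over the 14 mice without the 2 of highest score it ranged from -0.38 to 0.83 with a median of 0.46. The 14 mice still included WT + NR replicate 3. Adora2a and Penk had the highest r over them, 0.83, and Pde10a and Ppp1r1b the lowest, -0.38. The order did not follow the neuron types. Adora2a and Drd2, both of the indirect pathway type, had 0.64, while Drd1 and Adora2a, of different types, had 0.78. The mice are 4 groups and a shared normalization enters every value, so these are descriptions without a test.

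The list of 25 other striatal projection neuron genes was used to see whether the same mice were high in genes outside the 7. Of these, 24 were kept by the filter over all 16 mice, and WT replicate 2 was the highest mouse for 20 of them, or 83.3%, against 5.41% of all 17555 genes kept. Among direct pathway peptides, Tac1, the precursor of substance P, was at 206 CPM in WT replicate 2, 37.7 CPM in hTau.P301S + NR replicate 4 and 62.0 CPM in WT + NR replicate 3, and Pdyn, the precursor of dynorphin, was at 171, 35.6 and 51.1 CPM in these 3 mice. Gpr6, a receptor of indirect pathway neurons, was at 42.7, 13.4 and 7.70 CPM. Of the remaining 4 genes, WT replicate 4 was highest for Bcl11b and Foxp1, transcription factors that hippocampal neurons also express, hTau.P301S replicate 1 for Lrrc10b and hTau.P301S + NR replicate 4 for Ebf1.

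**Figure D3:**
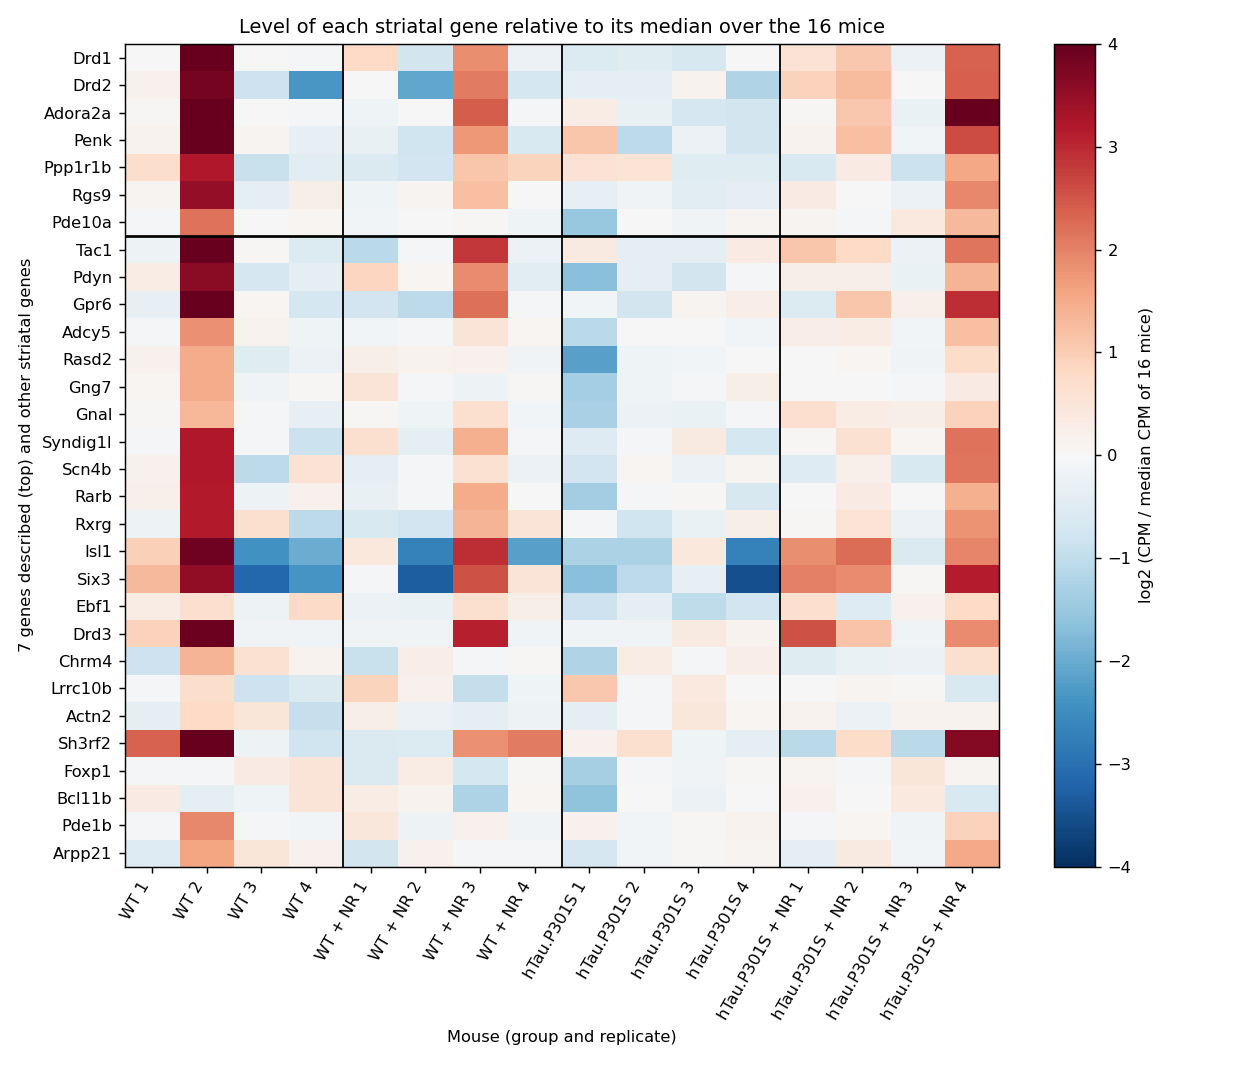
Level of the 7 genes (above the line) and of the other striatal projection neuron genes (under it) in each mouse, as log2 of the CPM over the median CPM of the 16 mice, with colours limited to the range from -4 to 4. The columns of WT replicate 2, hTau.P301S + NR replicate 4 and WT + NR replicate 3 are high through most of both lists, and Foxp1 and Bcl11b are not high in them.

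Ranked by Pearson's r with the score over the 16 mice, among 17548 genes outside the set, the 8 most alike included Serpina9 (0.961), Syndig1l (0.948), Gpr6 (0.945), Kcna5 (0.943), Htr1d (0.935), Gnb4 (0.933) and Tac1 (0.918). Of the 24 other striatal genes, 12 were among the 100 most alike, and their median r was 0.80 against -0.01 for all genes ranked. Serpina9 was at 25.7 CPM in WT replicate 2, 4.23 CPM in hTau.P301S + NR replicate 4 and 2.32 CPM in WT + NR replicate 3, and at 0.627 CPM or less in the other mice. Without the mice of highest and lowest score, 4 of the 8 genes remained among the 8 most alike. With each group centred on its own mean, 7 of the 8 did. The least alike of the 17548 genes was Neurod6, a transcription factor of pyramidal neurons on the hippocampal list, with an r of -0.94. It was at 21.8 CPM in WT replicate 2, 21.7 CPM in hTau.P301S + NR replicate 4 and 35.0 CPM in WT + NR replicate 3, and at 116 to 237 CPM in the other 13 mice. Not all of that list fell with the score: Wfs1, a gene of CA1 pyramidal neurons that is also expressed elsewhere, had an r of 0.74 and was highest in WT replicate 2, at 287 CPM, and second in hTau.P301S + NR replicate 4, at 202 CPM.

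Partners of dopamine, adenosine and opioid signalling showed less of this pattern. Of 27 such genes, including the G protein Gnal, adenylyl cyclases, subunits of protein kinase A, phosphatases and phosphodiesterases, WT replicate 2 was the highest mouse for 9, or 33.3%. Gnal, Adcy5 and Pde1b are also on the list of other striatal genes, and WT replicate 2 was the highest mouse for each. Oprk1, the kappa opioid receptor, was at 9.57 times the median of the 16 mice there, with 17.4 CPM in WT replicate 2, 13.1 CPM in WT + NR replicate 3 and 9.67 CPM in hTau.P301S + NR replicate 4. In WT replicate 2, Pde1b was at 3.83 times its median, Adcy5, the main adenylyl cyclase of striatum, at 3.54 times, the phosphodiesterase Pde2a at 3.37 times and Prkar2b, a regulatory subunit of protein kinase A, at 3.04 times. Adcy1, a cyclase of hippocampus and cortex, was at 271 CPM in WT replicate 2 against 1237, 737 and 1367 CPM in the other WT mice. It was at 322 CPM in WT + NR replicate 3 but at 797 CPM in hTau.P301S + NR replicate 4. Its lowest value, 167 CPM, was in hTau.P301S replicate 1. The dopamine D5 receptor Drd5, a receptor of hippocampal neurons, was at 4.26 CPM in WT replicate 2, 1.70 CPM in hTau.P301S + NR replicate 4 and 2.02 CPM in WT + NR replicate 3, the 3 lowest values of the 16 mice.

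Genes for making and transporting dopamine were highest in another mouse. WT + NR replicate 3 had the highest level for 5 of the 6 genes kept by the filter, and for Slc6a3, which the filter removed. Th, which makes the dopamine precursor L-DOPA, was at 60.9 CPM there, at 16.7 CPM in WT replicate 2 and at 3.01 CPM or less elsewhere. Slc6a3, the dopamine transporter, was at 78.6 CPM there and at 1.51 CPM or less in the other 15 mice. Drd2, the autoreceptor of dopamine neurons, was the member with the largest share of excess in that mouse, at 24.4%, followed by Drd1 at 17.4%. Any link between these levels was not tested.

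Markers of neighbouring regions moved with the 7 genes in the same mice, and their part in the results was not tested. The 10 hippocampal subfield genes summed to 453 CPM in hTau.P301S + NR replicate 4, 499 CPM in WT + NR replicate 3 and 578 CPM in WT replicate 2, the 3 lowest values, against 813 to 1307 CPM in the others. The 6 hypothalamic genes summed to 1203 CPM in WT replicate 2, 781 CPM in WT + NR replicate 3 and 54.7 CPM in hTau.P301S + NR replicate 4, against 18.2 CPM or less elsewhere, where Hcrt, Oxt and Pmch were at 0 in some mice. The 5 basal forebrain cholinergic genes summed to 89.5, 47.4 and 51.3 CPM in these mice. Their sum was also 40.8 and 37.2 CPM in hTau.P301S + NR replicates 1 and 2 and 23.9 CPM in WT replicate 1, against 5.43 CPM or less in the other 10 mice. In the hTau.P301S group it did not exceed 2.62 CPM, and Chat, the enzyme that makes acetylcholine, was at 0 to 0.163 CPM.

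The choroid plexus list was high in these 3 mice and in others. Its 8 genes summed to 6009 CPM in WT + NR replicate 3, 2493 CPM in WT replicate 2 and 450 CPM in hTau.P301S + NR replicate 4, and to 9969 CPM in WT + NR replicate 4, a mouse whose score for the striatal genes was -0.36. They also summed to 8071 CPM in WT replicate 1, 4771 CPM in hTau.P301S replicate 2 and 3608 CPM in hTau.P301S + NR replicate 2. The thalamic list summed to 492 CPM in hTau.P301S + NR replicate 4, 436 CPM in WT + NR replicate 3, 403 CPM in hTau.P301S replicate 1, 283 CPM in hTau.P301S + NR replicate 2 and 280 CPM in WT replicate 2. The 6 cortical genes ranged from 129 to 249 CPM over all mice. The 7 interneuron genes, which include the GABA-synthesizing enzymes that medium spiny neurons also express, were highest in WT replicate 2 at 1437 CPM.

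**Figure D4:**
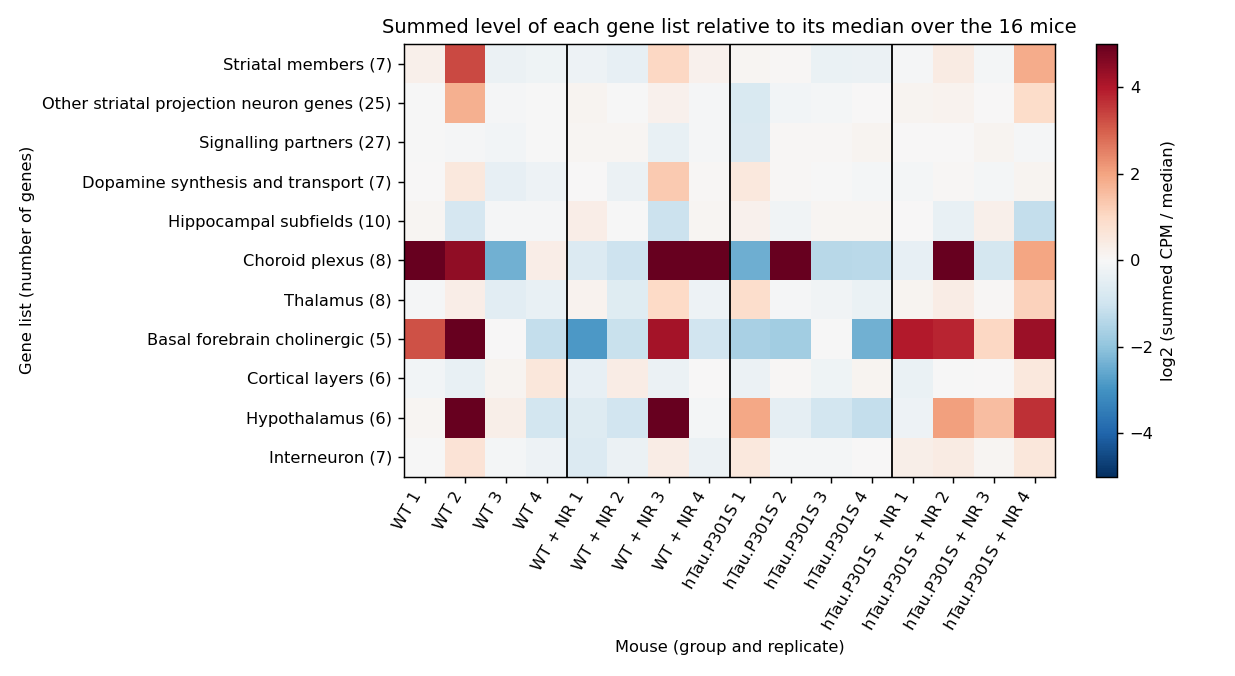
Summed CPM of each gene list in each mouse, as log2 of the sum over its median over the 16 mice, with colours limited to the range from -5 to 5. In WT replicate 2, WT + NR replicate 3 and hTau.P301S + NR replicate 4, the striatal member, basal forebrain and hypothalamic lists are high. The hippocampal list is low in these mice. The list of other striatal genes is at 1.16 times its median in WT + NR replicate 3 and higher in WT replicate 2 and hTau.P301S + NR replicate 4. The choroid plexus and basal forebrain lists are high in other mice as well.

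The effect of NR in WT mice was the comparison that shared no mouse with the one used to choose the genes. The genes were also chosen because they vary between the mice, the WT and WT + NR mice included. These values are therefore not independent of the choice. All 7 fitted levels were lower in WT + NR than in WT, with a median log2 fold change of -1.45 against 0 for all genes, but none was called and none had an unadjusted p under 0.05. A call needed both an adjusted p under 0.05 and a log2 fold change beyond 0.5 in either direction, and the percentage of the 16714 genes tested that met both was 0. At an unadjusted p under 0.05 it was 0.79%. Adora2a had a log2 fold change of -2.88 (SE 1.47, 95% confidence interval -6.20 to 0.44, adjusted p = 1, edgeR) and Pde10a one of -0.95 (SE 0.49, interval -2.06 to 0.16, adjusted p = 1, edgeR). The other 5 genes lay between -2.03 and -1.20, each with an adjusted p of 1. The direction rested on WT replicate 2: without it, 6 of the 7 genes were higher in WT + NR, with a median of 0.45, and without it and WT + NR replicate 3 the median was -0.03 with 2 of 7 higher. Of the 23 other striatal genes tested, 22 were lower with a median of -0.77, and none had an unadjusted p under 0.05.

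In hTau.P301S relative to WT mice, all 7 genes were lower, with log2 fold changes from -4.24 for Adora2a to -1.17 for Pde10a and a median of -2.37 against 0.02 for all genes. None was called, where 0.00611% of 16375 genes were. At an unadjusted p under 0.05, which 7.14% of all genes reached and 3.73% reached with a lower level in hTau.P301S, 3 members passed. They were Adora2a with -4.24 (SE 1.49), Drd1 with -2.66 (SE 0.99) and Rgs9 with -2.17 (SE 0.86), each with an adjusted p of 0.598 (edgeR). The 4 hTau.P301S mice also entered the comparison that chose the genes, so these values are not independent of the choice. With WT replicate 2 left out, the median came to -0.29 and 3 members were higher. Drd1 then had -0.41, Rgs9 -0.34 and Adora2a -0.30.

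Of the 21 other striatal genes tested in the same comparison, 20 were lower, with a median of -0.94, and 6 had an unadjusted p under 0.05. They included Gpr6 with -3.04, Tac1 with -2.73, Pdyn with -2.55, the retinoic acid receptor Rarb with -2.19 and the transcription factor Ebf1 with -1.25, and the adjusted p of each was 0.598 (edgeR). Of the 27 signalling partners, 18 were lower and 9 higher, with a median of -0.13 and none at an unadjusted p under 0.05. Among markers of other regions, 9 had an unadjusted p under 0.05, each with an adjusted p of 0.598 (edgeR). Across all genes, 7.14% reached that limit. The markers tested were 10 of 10 hippocampal, 7 of 8 choroid plexus, 8 of 8 thalamic and 6 of 6 cortical genes. They were also 7 of 7 interneuron, 2 of 6 hypothalamic and 1 of 5 cholinergic genes. Lower in hTau.P301S were Slc5a7, the choline transporter of cholinergic neurons, with -3.95 (SE 1.19), Avp, the vasopressin precursor, with -7.77 (SE 2.80), and the cortical genes Rspo1 with -2.14 and Rorb with -0.85 (SE 0.83 and 0.26). Higher were the hippocampal genes Spink8 with 2.20, Rgs14 with 0.84 and Amigo2 with 0.49, the thalamic gene Ramp3 with 2.39 and the cortical gene Lamp5 with 0.57. Avp was at 877 CPM in WT replicate 2 and at 0.920 CPM or less in the other WT mice. Spink8 was at 180 CPM and Ramp3 at 63.2 CPM in hTau.P301S replicate 1, against 23.5 and 8.64 CPM or less in the other hTau.P301S mice.

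Between the NR-treated groups, all 7 genes had higher fitted levels in hTau.P301S + NR than in WT + NR, from 0.03 for Ppp1r1b to 1.47 for Adora2a, with a median of 0.60 against -0.02 for all genes. None was called, where 0.054% of 16671 genes were, and none had an unadjusted p under 0.05, which 6.09% of all genes reached. The adjusted p ranged from 0.781 for Pde10a to 0.991 for Ppp1r1b (edgeR). Pde10a came closest, at 0.60 (SE 0.27, 95% confidence interval -0.02 to 1.21). The 4 hTau.P301S + NR mice also entered the comparison that chose the genes. With hTau.P301S + NR replicate 4 left out, the median came to -0.21 and 3 members were higher, with Adora2a at -0.64. Without WT + NR replicate 3 the median was 1.17 with all 7 higher, and without both mice it was 0.48 with 6 of 7 higher. Of the 23 other striatal genes tested, 19 were higher with a median of 0.34, and none had an unadjusted p under 0.05. Of the signalling partners 1, the phosphodiesterase Pde4b, had 0.39 (SE 0.11, adjusted p = 0.757, edgeR) and an unadjusted p under 0.05.

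The comparison that chose the genes, hTau.P301S + NR relative to hTau.P301S, is described without a test. The log2 fold changes were 2.80 for Adora2a, 1.75 for Drd2, 1.65 for Drd1, 1.33 for Penk, 1.09 for Rgs9, 0.81 for Pde10a and 0.28 for Ppp1r1b, with a median of 1.33 against -0.03 for all 16386 genes. Over all of these genes, 0.0061% met both limits for a call. Leaving out hTau.P301S + NR replicate 4 gave a median of 0.49, and 6 of the 7 genes were then higher, with 1.19 for Drd2, 0.96 for Drd1, 0.70 for Adora2a and -0.42 for Ppp1r1b. Without that mouse and hTau.P301S replicate 1, the library with the high mitochondrial share, it was 0.92. Among the other striatal genes, 20 of the 22 fitted were higher, with a median of 0.96, led by the transcription factors Six3 with 3.56 and Isl1 with 2.82, the latter also expressed by basal forebrain cholinergic neurons. For Six3, the values were 1.03, 1.75, 3.00 and 0.111 CPM in hTau.P301S and 16.2, 14.8, 3.98 and 35.5 CPM in hTau.P301S + NR mice. The 4 cholinergic genes fitted had log2 fold changes from 4.12 to 5.29.

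**Figure D5:**
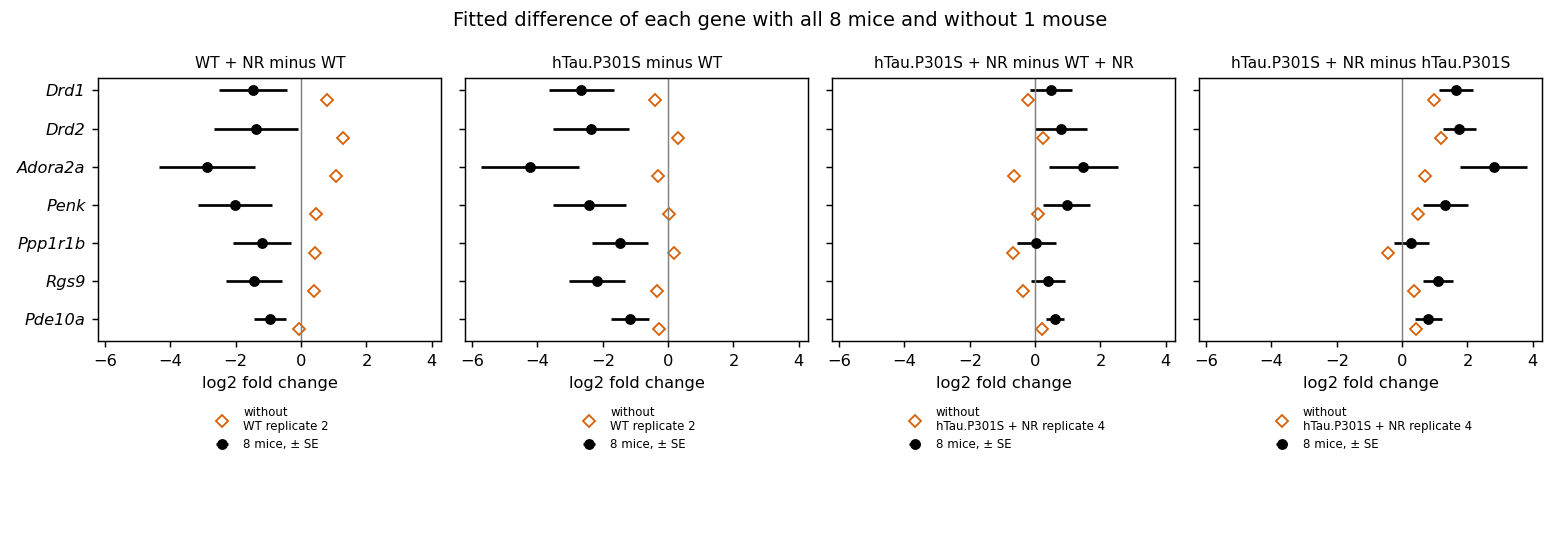
Fitted log2 fold change of each of the 7 genes in the 4 comparisons, with all 8 mice (filled circles, bars ± SE) and without the 1 mouse with the highest levels in that comparison (open diamonds). The genes were chosen by hTau.P301S + NR relative to hTau.P301S, so the bars of that panel are a description and no test. In WT + NR relative to WT the genes move from -2.88 to -0.95 with all mice to above 0 for 6 of 7 without WT replicate 2, and in hTau.P301S relative to WT they move to between -0.41 and 0.30.

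DESeq2 gives no p-value for a gene with a count far from the fit. On the 8 mice of each comparison it gave none for 5 of the 7 members in WT + NR relative to WT and in hTau.P301S relative to WT, and none for 1 of 7 in hTau.P301S + NR relative to WT + NR, and it called no member. In a fit to all 16 mice, added after the data had been seen, it gave no p-value for 2 of the 7 and called 1, Drd1, in hTau.P301S relative to WT (log2 fold change -2.65, adjusted p = 0.0410, DESeq2). Without WT replicate 2, the same fit gave Drd1 a log2 fold change of -0.40 (adjusted p = 0.738, DESeq2) and called no member.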

How the data were processed

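Hippocampal RNA of 16 mice was grouped by the sample labels, which give 4 mice per group, and replicate numbers come from the sample titles. The paper describes trimming of the reads, mapping with STAR on mm10 and quantification by RSEM. The authors deposited whole-number counts per gene without normalization, next to a gene length and symbol. Whether these counts are the output of RSEM was not checked. The submitters' processing notes name FastQC and Trim Galore. Total counts per mouse are given with the results. A p-value sets the difference between groups against the spread between mice, with 4 mice per group and information on spread shared over all genes.

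Each pair of groups was fitted with edgeR 4.0.16 (R 4.3.3) over all genes passing its default filter, with TMM normalization, the quasi-likelihood test and Benjamini-Hochberg adjustment. SE and 95% intervals were taken from the test statistic and its degrees of freedom. Log2 CPM used a prior count of 2. Gene positions are those of GENCODE for GRCm38.

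The members and gene lists were chosen with earlier results of these data known. Named genes were all members, list genes with an unadjusted p under 0.05 or the 3 largest changes (a choice of them is printed), and the 8 genes most like the score, of which 1 is not reported here. Drd5, Neurod6, Wfs1 and single markers of regions were named after their values were seen. Alternatives were DESeq2 1.42.0, DESeq2's size factors in edgeR, no filter on low counts, a minimum of 10 in every mouse, all 4 groups in one fit, mitochondrial genes removed, the replicate number as a block, and each mouse left out. Scripts were tested on simulated counts.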

Additional observations from a re-analysis of the deposited data

Results flagged for a closer look

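In each group of 4 mice, the gap between the most extreme mouse and its nearest neighbour was divided by the range of the group for each of the 7 genes and set against Dixon's 95% critical value for 4 samples. Of 28 groups examined, 12 passed. For values not chosen for their spread, chance flags about 5% of groups, or about 1 in 20, but these genes were picked because they vary between the mice, so the count is a description and no evidence of more than chance. All 7 genes passed in WT, each through a high replicate 2, with ratios of 0.998 for Drd1, 0.933 for Drd2, 0.999 for Adora2a, 0.983 for Penk, 0.875 for Ppp1r1b, 0.961 for Rgs9 and 0.973 for Pde10a. In WT + NR, replicate 3 passed for Adora2a (0.973), Penk (0.918) and Rgs9 (0.870). In hTau.P301S + NR, replicate 4 passed for Adora2a (0.928) and Rgs9 (0.866). No member passed in hTau.P301S. The members rise together within a mouse, so these are not 12 separate signs.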

How the results depend on the processing

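No member was called in any tested comparison under the alternatives run, except Drd1 with DESeq2 on all 16 mice, where the count in hTau.P301S relative to WT was 1. Leaving out each mouse in turn moved the median of the 7 members in the hTau.P301S mice, NR against no NR, between 0.49 and 1.64. In WT + NR relative to WT it gave Drd1 from -2.16 to 0.78, Drd2 from -2.69 to 1.28, Adora2a from -4.00 to 1.06, Penk from -3.01 to 0.45, Ppp1r1b from -1.56 to 0.44 and Rgs9 from -1.87 to 0.39. In hTau.P301S relative to WT it gave Drd2 from -2.77 to 0.30, Penk from -3.10 to 0.04 and Ppp1r1b from -1.83 to 0.18. Between the NR-treated groups it gave Drd1 from -0.21 to 1.17, Adora2a from -0.64 to 2.60, Ppp1r1b from -0.68 to 0.38 and Rgs9 from -0.36 to 0.81. Alternatives chosen after seeing the data left out a pair of mice or fitted DESeq2 to all groups. Without WT replicate 2 and WT + NR replicate 3, Drd1 and Ppp1r1b were at 0.09 in WT + NR relative to WT. Without hTau.P301S replicate 1 and WT replicate 2, Drd2 was at 0.29 in hTau.P301S relative to WT, and with DESeq2 on all groups but no WT replicate 2 it was at 0.31, Penk at 0.06 and Ppp1r1b at 0.18. Without hTau.P301S + NR replicate 4 and WT + NR replicate 3, Ppp1r1b was at -0.33. Same-numbered mice are different animals whose deviations correlated between -0.537 and 0.287, and the main fit did not pair them by number. These values cannot show whether same-numbered mice shared a litter or a dissection batch. With the number as a block, Drd2 was at 0.20 in WT + NR relative to WT and Ppp1r1b at -0.01 in hTau.P301S + NR relative to WT + NR, and no member was called. Without the mice of highest and lowest score, 4 of the 8 most alike genes remained. Genes called in hTau.P301S relative to WT were 1, and 115 with DESeq2, 494 with DESeq2 on all groups, 752 with that fit and no WT replicate 2, 5 without a filter, 36 with all groups in edgeR, 3 with the block, 14 without hTau.P301S replicate 1, 2 without WT replicate 3 and 23 without hTau.P301S replicate 1 and WT replicate 2. In hTau.P301S + NR relative to WT + NR they were 9, and 58 with DESeq2, 21 with DESeq2 on all groups, 15 without a filter, 4 with the block, 31 without WT + NR replicate 3 and 28 without that mouse and hTau.P301S + NR replicate 4. In WT + NR relative to WT they were 0, and 2 with DESeq2 on all groups. The causes were not tested. With at least 22 counts in every mouse, the spread within groups of 4 limited the members more than depth did.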
